A study of Mus musculus with 12 samples.

Results

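The response of macrophages labelled wild type (WT) for Nlrc3 to lipopolysaccharide (LPS) was described from 6 of the 12 libraries of an RNA sequencing series, chosen by their labels alone: 3 labelled WT with LPS and 3 labelled WT in RPMI 1640 medium. The cells were bone marrow-derived macrophages, grown from the marrow of mouse femurs and tibias with recombinant M-CSF, the macrophage growth factor. Every mouse of the series carried loxP-flanked Nlrc3 alleles. WT means NLRC3fl/fl mice without the LysM-Cre transgene, and the other 6 libraries are labelled as NLRC3fl/fl with LysM-Cre, a Cre driven by a promoter active across myeloid cells. LPS was given for 12 h and the medium libraries received none. LPS dose, age and sex are not in the labels used here. Nor do these tie each replicate to its own mouse. The spread behind every p-value below was estimated over all 12 libraries, those labelled KO included, and part of it may be technical.

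LPS, the outer membrane glycolipid of Gram-negative bacteria, is bound by CD14 and MD-2 and signals through Toll-like receptor 4. The adaptor MyD88 leads to NF-kB and AP-1, which switch on cytokines and chemokines, and the adaptor TRIF leads to IRF3 and interferon beta. Secreted interferon then acts back on the cells through JAK kinases and STAT factors, and induces a set of antiviral and antigen presentation genes.

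Library totals ran from 13082947 to 20960505 counts in the 6 libraries. Levels are in CPM, counts scaled so that each library sums to 1000000, and 3 values in a row are libraries 1, 2 and 3 of a group. Folds come from edgeR after TMM scaling, whose factors lay between 1.10 and 1.46 in medium and between 0.765 and 1.02 in LPS, so a log2 fold lies about 0.58 above the plain ratio of CPM. Nlrc3 stood between 9.89 and 13.6 CPM in WT medium, between 0.796 and 4.39 in WT LPS, between 0.850 and 0.996 in the libraries labelled KO medium and between 6.04 and 15.6 in those labelled KO LPS. Nlrc3 was thus low in the libraries labelled KO medium, but within the range of WT LPS. In those labelled KO LPS it stood above every WT LPS library, against their label, and its range overlapped that of WT medium. All 6 libraries labelled KO are therefore named by label only. In the WT libraries, Nos2, the inducible nitric oxide synthase, went with the treatment label, between 3.90 and 8.35 CPM in medium and between 831 and 2704 CPM in LPS. Xist, the transcript of the inactive X chromosome, marked medium 1, medium 3 and LPS 2, and Y-linked transcripts marked the other 3, so neither group's libraries all came from 1 mouse. The 12 macrophage markers were above the floor (the level of 3 counts) in at least one library each and summed to between 33852 and 37516 CPM in medium and between 14049.6 and 21059 CPM in LPS. Of these 12, 2 were called higher and 1 lower. Markers of other cell types were measured too. Those of B cells summed to at most 168 CPM, of T and NK cells to at most 23.3 CPM and of dendritic cells to at most 31.3 CPM. Called higher were 0 of 7 B cell, 1 of 9 T and NK cell and 1 of 7 dendritic cell markers tested, and 0 were lower. Neutrophil markers summed to between 912 and 1353 CPM in medium and between 1009.8 and 4409 CPM in LPS, highest in LPS 3, with S100a8 and Camp called higher of 11 tested, neither without LPS 3, medium 1 or medium 3. Stromal and endothelial markers summed to between 86.3 and 198 CPM in medium and between 62.9 and 444 CPM in LPS, with Pdgfrb and Cdh5 called higher of 12 tested, Cdh5 not without medium 3. Megakaryocyte markers summed to between 169.6 and 462 CPM in medium and between 149 and 505 CPM in LPS, with 0 of 7 called. Mast cell and basophil markers summed to between 11.6 and 33.7 CPM in medium and between 66.6 and 155 CPM in LPS, with Hdc, the enzyme of histamine synthesis, called higher of 5 tested. By share, 16.7% of macrophage, 11.1% of T and NK cell and 14.3% of dendritic cell markers tested were called higher. The same held for 18.2% of neutrophil, 16.7% of stromal and 20% of mast cell and basophil markers, against 11.9% of all genes tested. Of macrophage markers 8.33% were called lower, against 6.46% of all genes. The part of these cell types in the results was not tested. In such bulk samples, fewer cells of a type and less RNA per cell cannot be told apart. Exons of Myd88, Nfkb2, Il27, Cxcl10, Tap1, Fpr2 and Prdx5 overlap those of another gene (in that order Acaa1a, Psd, Apobr, Art3, Psmb9, Fpr3 and Trmt112), and no source used here says whether counting used strand, so their values are uncertain.

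LPS changed a large share of the transcriptome. Of 13773 genes tested, 1636 (11.9%) were called higher and 890 (6.46%) lower, 2526 or 18.3% in all (edgeR quasi-likelihood test, Benjamini-Hochberg adjusted p under 0.05). The libraries of the groups did not overlap for 18.5% of genes with LPS above and 15.4% with LPS below, and for 1564 of the genes called higher and 846 of those called lower. Rises were the larger: 907 genes rose at least 4-fold and 279 fell as much, while at 32-fold the numbers were 140 and 8. The higher genes took 10.9% to 12.7% of all counts in medium and 35.4% to 44.2% in LPS. The lower genes went from 3.08% to 4.94% down to 0.671% to 1.27%. The median log2 fold over all genes was −0.06, and −0.64 when scaled by library size alone. The split became 1033 higher and 3200 lower, 24.4% higher in place of 64.8%. All 1033 and 890 of those 3200 were among the genes called with TMM, and none changed sides. A call is named stable below if it was also made with each of the 6 WT libraries left out in turn, which held for 973 higher and 267 lower genes. The word covers those 6 fits only and not the other scalings, filters or blocks. The counts without one library went down to 1069 higher and 315 lower when WT LPS 3 was left out, to 1099 and 394 without WT medium 1, and to 1111 and 434 when WT medium 3 was left out. Without WT LPS 2 they were 1858 and 1184. In a fit of the 6 WT libraries alone they were 1123 and 467.

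**Figure D1:**
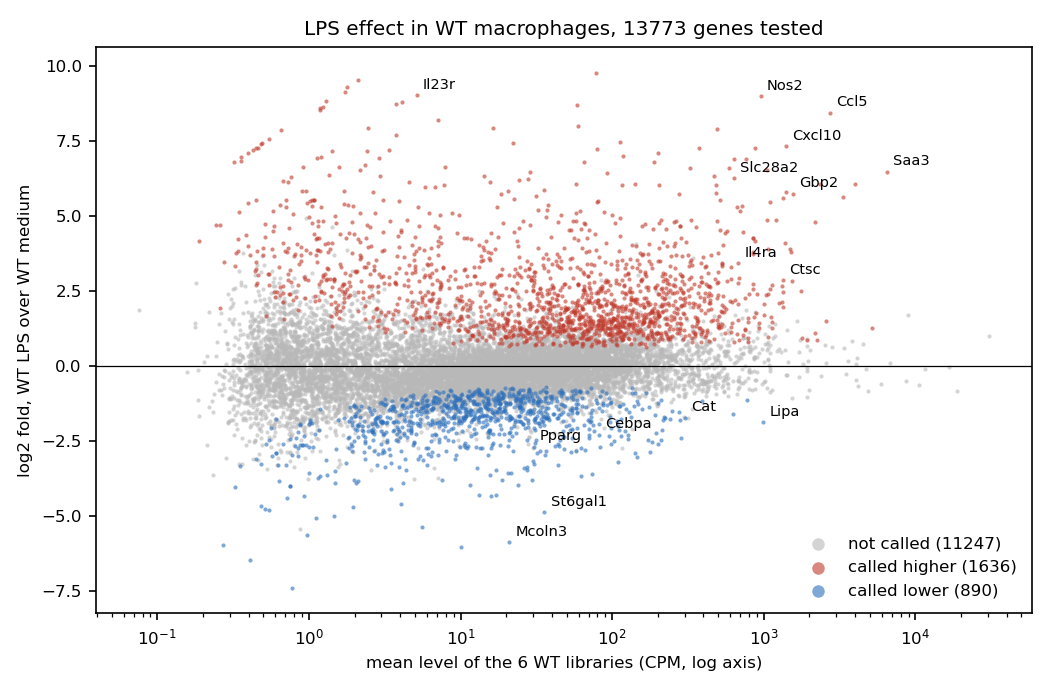
Each point is a gene: the mean level over the 6 WT libraries (x, CPM, log axis) against the log2 fold of WT LPS over WT medium (y). The 1636 genes called higher (red) reach further from 0 than the 890 called lower (blue), and several of the highest points, such as Ccl5 and Saa3, are also among the most abundant transcripts.

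**Figure D2:**
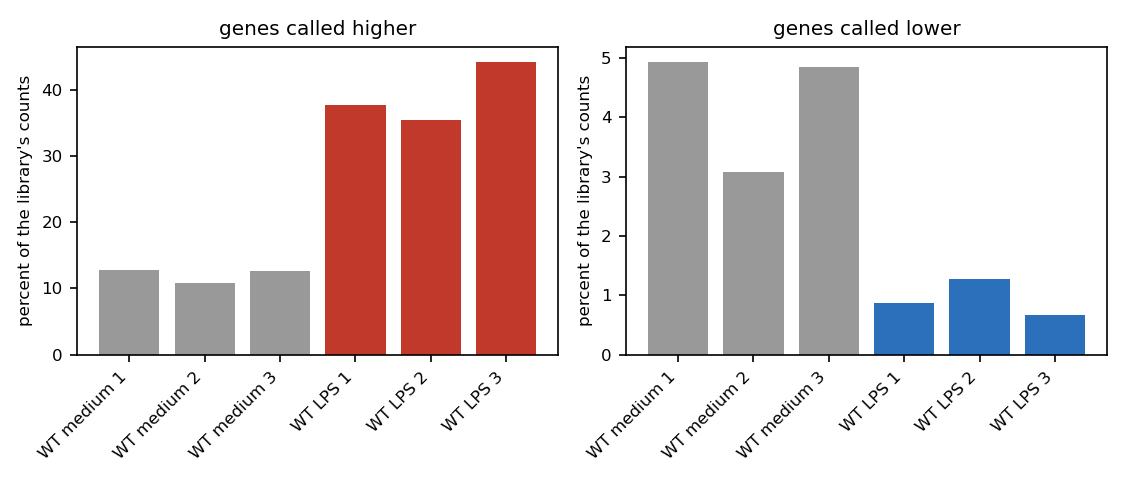
Bars are the percent of each WT library's counts that fall in the genes called higher (left) and called lower (right), with medium in grey. The higher genes take 35.4% to 44.2% of each LPS library.

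The 5 genes with the largest gain in CPM were Saa3, an acute phase protein, Rsad2, an antiviral enzyme, Il1rn, the interleukin 1 receptor antagonist, Ccl5, a chemokine, and Acod1, the enzyme of itaconate synthesis. Together they held at most 0.110% of a medium library and 3.01% to 4.32% of an LPS library. Saa3 (chromosome 7, 46711998 to 46715700, minus strand) stood at 53.8, 422 and 132 CPM in medium and 14403, 9945 and 13811 CPM in LPS. The level was high in all 3 LPS libraries, and in medium it was highest in library 2. Its log2 rise was 6.47 ± 1.39 (edgeR, Benjamini-Hochberg adjusted p = 0.00733). Rsad2 stood at 168 ± 72.8 CPM in medium and 7779 ± 853 CPM in LPS (SD, n = 3), and rose by 6.07 ± 0.53. Among the largest rises by fold were Lipg, endothelial lipase, and the transcription factor Lhx2. Lipg was measured at 0.666, 0.306 and 1.10 CPM in medium and 70.9, 145 and 138 CPM in LPS, and Lhx2 at 0.205, 0.229 and 0.183 CPM in medium and 38.0, 16.4 and 43.1 CPM in LPS. Neither overlapped between the groups, and the medium levels of Lhx2 lay at or near the floor, which was 0.143 to 0.229 CPM. The vasoconstrictor peptide Edn1 (0.512, 0.459 and 0.244 CPM in medium and 69.9, 3.44 and 58.3 CPM in LPS) was far lower in LPS 2 than in the other LPS libraries.

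Of 17 Toll-like receptors and LPS co-receptor genes, 3 rose (17.6%, against 11.9% of all genes) and 0 fell, all 3 stable, with a median log2 fold of 0.69 against −0.06 over all genes. Tlr3, the endosomal receptor of double-stranded RNA, stood at 22.2, 9.33 and 23.7 CPM in medium and 96.0, 144 and 138 CPM in LPS. All LPS libraries were above all medium libraries, and the log2 rise was 3.40 ± 0.42 (edgeR, Benjamini-Hochberg adjusted p = 0.000291). Tlr6 (1.45 ± 0.25) and Tlr1 (1.28 ± 0.30), partners of Tlr2 for bacterial lipopeptides, rose too, and the CPM of Tlr1 overlapped between the groups. Tlr4, the LPS receptor itself, is named here for its role and outside the rule for named genes. It stood at 135, 53.1 and 128 CPM in medium and 24.0, 84.1 and 27.4 CPM in LPS, lowest in LPS 1 and 3, and was not called (−0.68 ± 0.42). The co-receptor Cd14 was measured at 613, 685 and 822 CPM in medium and 1477, 495 and 1417 CPM in LPS and was not called either (1.34 ± 0.45, edgeR, Benjamini-Hochberg adjusted p = 0.0605). In LPS it was low in library 2 and about as high in the others. Of 18 adaptors and IRAK, TRAF and TBK1 kinase genes, 6 rose, 5 of them stable, and 0 fell. Myd88, the common adaptor (102, 89.5 and 115 CPM in medium and 373, 232 and 367 CPM in LPS), rose by 2.31 ± 0.30. The inhibitory kinase homologue Irak3 (64.7, 24.5 and 86.0 CPM in medium and 149, 203 and 261 CPM in LPS) rose by 2.46 ± 0.47, and Tbk1, a kinase of IRF3, by 1.46 ± 0.25. Peli1, a ubiquitin ligase of this pathway, rose by 2.87 ± 0.35. None of these 4 overlapped between the groups. For the receptor list, library size alone gave 2 higher and 1 lower, the count of higher genes was 5 without LPS 2, and the count of lower genes was 1 without medium 2 and 3 without LPS 2. For the adaptor list, library size alone gave 5 higher and 2 lower, and the count of lower genes was 1 without LPS 2.

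Many inhibitors and feedback genes of NF-kB rose. Of 20 genes of NF-kB inhibitors and feedback, 11 rose, 9 of them stable, and 0 fell, with a median of 1.98. Nfkbia, which encodes the inhibitor that holds NF-kB in the cytoplasm (chromosome 12, 55489410 to 55492647, minus strand), stood at 91.3, 79.5 and 93.3 CPM in medium and 667, 202 and 796 CPM in LPS. It was higher in every LPS library than in any medium library, and its rise of 3.33 ± 0.48 had an adjusted p = 0.000716 (edgeR, Benjamini-Hochberg). Traf1, a signalling adaptor of TNF receptors, stood at 35.6, 11.8 and 25.4 CPM in medium and 349.6, 81.6 and 609 CPM in LPS and rose by 4.56 ± 0.67. Nfkbie (2.86 ± 0.45) and Tnip1, a partner of the deubiquitinase A20 (2.91 ± 0.46), rose in a like range. In each of these genes LPS 2 was the lowest LPS library. Among the 5 subunits, 4 rose, of which the stable ones were Nfkb2 (85.9, 39.5 and 94.5 CPM in medium and 446, 101 and 504 CPM in LPS, log2 2.98 ± 0.58) and Relb (1.90 ± 0.40), the pair of the slower, non-canonical arm. The CPM of Relb overlapped, and LPS 2 lay just under the highest medium library. For the NF-kB subunits, library size alone gave 2 higher and 0 lower, and the count of higher genes was 2 without LPS 1, LPS 3 or medium 3. With a block for the number that some medium and LPS libraries share in their codes, 0 of the 5 subunits were called. Medium 1 and LPS 3 share no number and add nothing to the LPS effect in that fit. For the NF-kB inhibitors and feedback, library size alone gave 10 higher and 1 lower.

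Promoter stretches of 2 inhibitors and of 2 cytokines that rose, Il6 and Il1a, are shown because letters that NF-kB or AP-1 binds stand in them. Sequences are from RefSeq for GRCm38.p6, 5′ to 3′ on the gene's strand, ending before the start of the RefSeq transcript. Capitals mark the letters searched, each on either strand: the kappaB letters (GGGA, any 4 bases, CC), the AP-1 letters (TGANTCA) and the interferon response element (GAAA, any 2 bases, GAAA).
Nfkbia, chr12:55492652-55492874, minus strand: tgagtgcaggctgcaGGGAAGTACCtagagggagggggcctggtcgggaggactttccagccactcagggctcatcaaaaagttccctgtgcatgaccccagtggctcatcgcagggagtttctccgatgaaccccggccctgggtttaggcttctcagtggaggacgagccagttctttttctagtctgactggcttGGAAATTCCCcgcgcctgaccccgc
Tnip1, chr11:54962973-54963012, minus strand: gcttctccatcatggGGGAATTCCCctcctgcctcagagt
Il6, chr5:30012864-30013095, plus strand: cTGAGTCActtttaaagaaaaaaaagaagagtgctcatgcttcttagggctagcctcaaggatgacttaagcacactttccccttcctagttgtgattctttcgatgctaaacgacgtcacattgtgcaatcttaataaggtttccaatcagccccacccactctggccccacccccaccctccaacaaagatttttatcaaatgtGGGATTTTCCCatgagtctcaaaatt
Il1a, chr2:129309973-129309999, minus strand: aaaggcagagaagccTGACTCAgactt
Nfkbia holds the kappaB letters at both ends of the stretch, Tnip1 holds them once and Il6 holds them close to the start, read there on both strands in overlapping places, with TGANTCA far upstream, and Il1a holds TGANTCA. Of 1601 windows of 300 bases of the genes called higher, 27.9% held the kappaB letters, against 26.3% of 12708 windows of all genes tested and 26.4% of 876 windows of the genes called lower. They stood in 6 of 11 windows of the called inhibitors and in 5 of 5 of the called CXC chemokines, but in 1 of 4 of the called CC chemokines and in 3 of 11 of the called class I genes. Of the 201 windows of genes that rose at least 16-fold, 28.9% held them. TGANTCA stood in 8.68% of windows of higher genes, 5.53% of all and 4.91% of lower genes, and in 20.4% of the same 201 windows. A match of letters is a description and not a bound site.

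Among factors that act beside NF-kB, more genes rose than fell. Of 18 AP-1 and bZIP genes, 7 rose and 1 fell, 4 and 1 of them stable. These are 38.9% and 5.56%, against 11.9% and 6.46% of all genes. For the AP-1 list, library size alone gave 5 higher and 4 lower, the count of higher genes was 4 without LPS 1, medium 1 or medium 3, and the count of lower genes was 2 without LPS 2 or medium 2. Batf2, an interferon-inducible partner of IRF factors, stood at 9.79, 8.71 and 8.53 CPM in medium and 181, 66.2 and 148 CPM in LPS and rose by 4.52 ± 0.46. Cebpb, a factor of inflammatory macrophages (55.0, 86.5 and 62.7 CPM in medium and 293, 118 and 204 CPM in LPS), rose by 2.21 ± 0.46. Its relative Cebpa, a factor of myeloid differentiation, fell from 151, 152 and 128 CPM to 23.0, 25.9 and 11.1 CPM, with no overlap (−2.28 ± 0.35, edgeR, Benjamini-Hochberg adjusted p = 0.00107). Cebpb and Cebpa thus moved in opposite directions. Of 12 MAP kinase phosphatases, which switch off p38, JNK and ERK, 6 rose and 2 fell (50% and 16.7%). Dusp1, the best known of them in macrophages, stood at 35.3, 75.9 and 42.9 CPM in medium and 239, 205 and 341 CPM in LPS and rose by 2.91 ± 0.43. Dusp16 rose by 3.55 ± 0.55 and Dusp2 by 4.53 ± 0.75, and in both LPS 2 was the lowest of the LPS libraries. Dusp3 fell from 239, 212 and 212 CPM to 42.9, 67.7 and 28.9 CPM (−1.70 ± 0.28), and Dusp22 fell by 1.60 ± 0.31 on the log2 scale. For the phosphatases, library size alone gave 3 higher and 2 lower, and the count of higher genes was 3 without LPS 1, LPS 3, medium 1 or medium 3. Of 17 genes of cytokine mRNA decay, 5 rose and 1 fell (29.4% and 5.88%), 4 and 0 of them stable. The stable ones included Zfp36, which binds AU-rich elements (143, 148 and 162 CPM in medium and 509.8, 334 and 626 CPM in LPS, log2 2.33 ± 0.37), the endonuclease Zc3h12a (2.69 ± 0.45) and Arid5a, which protects Il6 mRNA (3.30 ± 0.54). For the mRNA decay list, library size alone gave 4 higher and 4 lower, and the count of lower genes was 0 without LPS 1, LPS 3, medium 1 or medium 3 and 2 without medium 2.

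Genes of the interferon arm rose, among them ligands, receptors and signal transducers. Of 12 genes of interferon, interleukin 15, 18 and 27 ligands and receptors, 10 rose, all 10 stable, and 1 fell. The shares were 83.3% and 8.33%, against 11.9% and 6.46% of all genes. For the interferon list, the count of lower genes was 0 without LPS 1, LPS 3, medium 1 or medium 3. Ifnb1, interferon beta, stood at 0.102, 0.459 and 0.0609 CPM in medium and 2.39, 3.05 and 0.851 CPM in LPS, low in absolute level and highest in LPS 2. Its receptor chain Ifnar1 (151, 136 and 187 CPM in medium and 278, 352 and 362 CPM in LPS) rose by 1.67 ± 0.22 and Ifnar2 by 1.74 ± 0.34. Both chains were above every medium library in each LPS library. Il15ra, which presents interleukin 15, stood at 8.25, 5.35 and 7.25 CPM in medium and 108, 111 and 152 CPM in LPS, and Il15 at 24.1, 25.0 and 26.9 CPM in medium and 220.2, 128 and 164 CPM in LPS. The log2 rises were 4.77 ± 0.38 and 3.38 ± 0.31. Il18bp, the decoy of interleukin 18, rose by 2.91 ± 0.61 beside its ligand Il18 (3.35 ± 0.36), and the subunits of interleukin 27, Il27 and Ebi3, by 7.47 ± 0.87 and 2.47 ± 0.51. Of 8 interferon regulatory factors tested, 5 rose, and the stable ones were Irf7 and Irf1. Irf7, the factor that amplifies interferon production, stood at 409.9, 203 and 270.0 CPM in medium and 2062, 3455 and 2674 CPM in LPS and rose by 3.80 ± 0.44. For the IRF family, library size alone gave 2 higher and 1 lower, and the count of higher genes was 2 without LPS 1, medium 1 or medium 3 and 3 without LPS 3. Irf3, which is activated by phosphorylation, stood at 48.5, 46.5 and 47.4 CPM in medium and 28.7, 32.7 and 28.6 CPM in LPS. It was lower in LPS in CPM without overlap, but the TMM-scaled log2 fold was −0.08 ± 0.22 and it was not called. Of 11 STAT and JAK genes, 6 rose, 5 of them stable. The stable ones include Jak2 (69.4, 32.9 and 71.7 CPM in medium and 455, 297 and 659 CPM in LPS, log2 3.70 ± 0.39), Stat2 (2.43 ± 0.36) and Stat3 (2.23 ± 0.45). The suppressors of cytokine signalling Socs1 and Socs3 were the stable rises among 8 SOCS genes, 4 of which rose. Socs1 stood at 1.43, 2.75 and 1.34 CPM in medium and 113, 36.5 and 58.4 CPM in LPS, and Socs3 at 20.8, 22.2 and 41.4 CPM in medium and 1057, 326 and 1429 CPM in LPS. The log2 rises were 5.86 ± 0.59 and 5.75 ± 0.59. For the SOCS genes, library size alone gave 2 higher and 1 lower, the count of higher genes was 2 without LPS 1, LPS 3, medium 1 or medium 3, and the count of lower genes was 1 without LPS 2 or medium 2.

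Nearly all interferon-inducible GTPases rose. Guanylate-binding proteins (GBP) and immunity-related GTPases (IRG) coat and break pathogen vacuoles, and the Mx proteins act on viruses. Of 18 genes tested, 17 rose, 16 of them stable, and the median log2 fold was 4.72. The list's sum went from between 630 and 841 CPM in medium to between 10407 and 14813 CPM in LPS. Gbp2 (chromosome 3, 142620602 to 142638008, plus strand) stood at 109, 73.8 and 79.7 CPM in medium and 3007, 2307 and 3777 CPM in LPS. Gbp3 stood at 53.7, 57.8 and 38.6 CPM in medium and 1526, 803 and 1519 CPM in LPS, and Gbp5, which promotes inflammasome assembly, at 22.8, 9.25 and 18.5 CPM in medium and 1187, 751 and 1838 CPM in LPS. The groups were far apart in each, and the log2 rises were 5.74 ± 0.45, 5.29 ± 0.45 and 6.90 ± 0.67 (edgeR, Benjamini-Hochberg adjusted p = 2.5e-05, 3.4e-05 and 7.7e-05). Gbp7 stood at 30.3, 16.4 and 27.1 CPM in medium and 170.3, 389 and 235 CPM in LPS, highest in LPS 2, and was called higher. Gbp8 was the member not called. Near-identical copies in these families can share reads, so values of single members are uncertain. Promoter stretches of 3 members are shown for the same letters as above.
Gbp2, chr3:142620546-142620628, plus strand: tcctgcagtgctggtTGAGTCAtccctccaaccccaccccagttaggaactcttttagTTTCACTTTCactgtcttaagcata
Gbp3, chr3:142559984-142560029, plus strand: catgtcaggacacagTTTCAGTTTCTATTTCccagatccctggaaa
Gbp7, chr3:142530268-142530307, plus strand: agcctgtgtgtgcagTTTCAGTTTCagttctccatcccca
The interferon response element, read here as its reverse complement on the gene's strand, stood in each of the 3, once in Gbp2 and Gbp7 and in 2 overlapping places in Gbp3, at 39 to 59 bases before the RefSeq start. The gene coordinates given above are from GENCODE, which starts Gbp2 further upstream. By those coordinates the element of Gbp2 lies just inside the gene. Over the list the element stood in 10 of 11 windows of the called members. It was present in 8.81% of windows of all genes called higher, in 3.40% of windows of all genes tested and in 2.40% of windows of genes called lower. In the 11 windows of called inhibitors of NF-kB the count was 0.

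Most secreted cytokines rose. Of 25 interleukin and TNF family ligands tested, 19 rose, 16 of them stable, and 0 fell, with a median of 4.09. Il1a (chromosome 2, 129299610 to 129309972, minus strand) stood at 5.84, 5.35 and 8.77 CPM in medium and 1137, 144 and 1641 CPM in LPS. LPS 2 was well below the other LPS libraries and still far above medium, and the log2 rise was 7.90 ± 0.91 (edgeR, Benjamini-Hochberg adjusted p = 0.000201). Il10, which restrains macrophage activation, stood at 6.61, 3.36 and 6.58 CPM in medium and 168, 68.2 and 221 CPM in LPS and rose by 5.47 ± 0.57. Tnfsf10, the death ligand TRAIL, stood at 8.76, 2.37 and 6.82 CPM in medium and 97.3, 125 and 107 CPM in LPS, with LPS 2 the highest of the 3 in CPM. Il1rn stood at 4974, 5719 and 8739 CPM in LPS, highest in LPS 3. Il33 stood at 0, 0 and 0.0609 CPM in medium and 11.3, 0.573 and 10.8 CPM in LPS and Il19 at 0, 0.994 and 0.426 CPM in medium and 158, 4.15 and 189 CPM in LPS. Il33 was under the floor in each medium library, and both were low in LPS 2. Of 21 cytokine receptor genes, 13 rose and 1 fell (61.9% and 4.76%, against 11.9% and 6.46% of all genes), 8 and 0 of them stable. Il4ra, the interleukin 4 receptor chain, stood at 158, 139 and 217 CPM in medium and 1001, 1169 and 1399.8 CPM in LPS (3.41 ± 0.34), and its partner Il13ra1 rose by 2.52 ± 0.34. Tnfrsf1b, the second TNF receptor, was already abundant in medium and stood at 965, 523 and 791 CPM in medium and 2599.9, 2379 and 3321 CPM in LPS (2.50 ± 0.36). Il23r was at 0, 0 and 0.0609 CPM in medium, under the floor, and at 8.10, 14.7 and 7.91 CPM in LPS. Csf1r, the M-CSF receptor, was not called (3551, 1365 and 3790.1 CPM in medium and 1009, 1393 and 852 CPM in LPS, log2 −0.79 ± 0.36). For the cytokine receptors, library size alone gave 7 higher and 3 lower, the count of higher genes was 8 without LPS 3, medium 1 or medium 3, and the count of lower genes was 0 without LPS 1, LPS 2, LPS 3, medium 1 or medium 3 and 4 without medium 2.

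**Figure D3:**
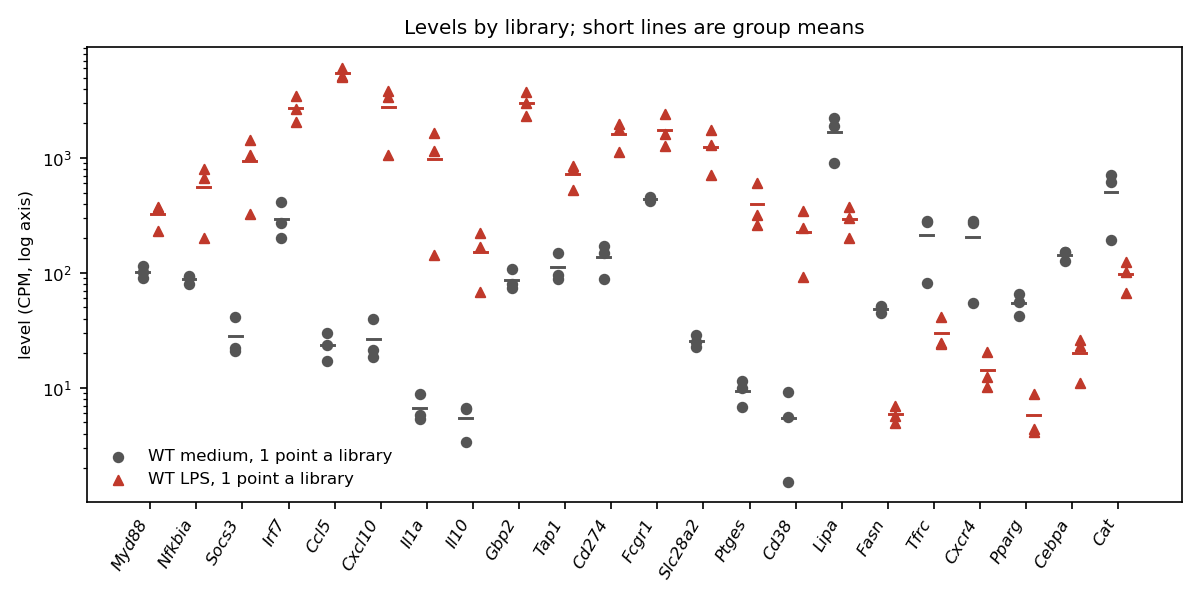
Levels in CPM (log axis) of 22 genes in the 3 WT medium libraries (grey circles) and the 3 WT LPS libraries (red triangles), with short lines for group means. The last 7 genes, from Lipa to Cat, are lower in LPS, and Il1a and Nfkbia show 1 LPS library well under the other 2.

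Chemokines for monocytes and for T cells were among those that rose. Of 12 CC chemokines 6 rose, 5 of them stable, and of 10 CXC chemokines 7 rose, 4 of them stable. Ccl5, which attracts T cells and monocytes, stood at 29.9, 23.8 and 17.0 CPM in medium and 5045, 5207 and 6092 CPM in LPS, even across the LPS libraries, with a log2 rise of 8.44 ± 0.57. Ccl3 stood at 53.6, 101 and 62.9 CPM in medium and 1183, 213 and 1802 CPM in LPS, and Ccl4 at 28.1, 51.7 and 18.8 CPM in medium and 1260.3, 184 and 1526 CPM in LPS. In both LPS 2 was far below the others, and the log2 rises were 4.51 ± 0.76 and 5.52 ± 0.84. The ligands of Cxcr3 on T cells rose as well: Cxcl10 stood at 18.7, 39.4 and 21.1 CPM in medium and 3852, 1070.3 and 3363 CPM in LPS and Cxcl9 at 6.10, 0.841 and 1.46 CPM in medium and 164, 234 and 301 CPM in LPS. The log2 rises were 7.32 ± 0.68 and 6.98 ± 0.81, and LPS 2 was low for Cxcl10 but not for Cxcl9. Ccl2 and Ccl7, the monocyte attractants, were not called, at 7.69, 220.1 and 19.8 CPM in medium and 347, 585 and 349 CPM in LPS for Ccl2. In medium, library 2 stood apart for both, and for Ccl7 the levels were 3.69, 182 and 12.1 CPM in medium and 376, 718 and 754 CPM in LPS. Of the same 12 CC chemokines, 10 were higher with no filter on low counts and 9 when medium 2 was left out, Ccl2 and Ccl7 in both cases among them. For the CXC chemokines, the count of higher genes was 4 without medium 1. Of 15 chemokine and chemoattractant receptors, 4 rose, all stable, and 2 fell, 1 of them stable. The shares were 26.7% and 13.3%, against 11.9% and 6.46% of all genes. The formyl peptide receptors, which sense bacterial peptides, rose: Fpr1 stood at 41.4, 19.2 and 34.8 CPM in medium and 324, 551 and 704 CPM in LPS (4.67 ± 0.40) and Fpr2 at 27.7, 24.5 and 29.9 CPM in medium and 455, 320.4 and 714 CPM in LPS (4.82 ± 0.40). Ccr7, the receptor that takes cells to lymph nodes and a marker of dendritic cells, stood at 4.46, 1.22 and 2.38 CPM in medium and 10.4, 13.1 and 23.4 CPM in LPS (3.17 ± 0.60). It was the one marker called among the 7 dendritic cell markers tested, which summed to between 4.13 and 17.3 CPM in medium and between 15.2 and 31.3 CPM in LPS, and their part in the result was not tested. Cxcr4, which holds cells in the marrow, fell from 272, 55.0 and 283 CPM to 12.4, 20.7 and 10.2 CPM (−3.18 ± 0.59), with no overlap. For the chemoattractant receptors, library size alone gave 4 higher and 5 lower, and the count of lower genes was 1 without LPS 1, LPS 3, medium 1 or medium 3 and 4 without LPS 2.

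Genes of MHC class I presentation rose, while 1 class II gene passed the test. Of 17 genes of MHC class I loading and the immunoproteasome, 12 rose, all 12 stable, and 0 fell (median 2.13). Tap1, a subunit of the peptide transporter, stood at 149, 96.4 and 88.9 CPM in medium and 794, 529.9 and 842 CPM in LPS, Tap2 rose by 2.60 ± 0.32 and Tapbp, which links the transporter to class I, stood at 558, 442 and 424 CPM in medium and 1744, 1246 and 1788 CPM in LPS. The groups did not overlap for any of the 3, with log2 rises of 3.32 ± 0.41, 2.60 ± 0.32 and 2.37 ± 0.31. Psme1, part of the proteasome activator, rose by 2.03 ± 0.28. Of 14 constitutive core proteasome genes, 1 rose (7.14%, under the 11.9% of all genes). For the core proteasome, the count of higher genes was 0 without LPS 1, LPS 3, medium 1 or medium 3 and 2 without LPS 2 and 8 without medium 2. For the class I list, library size alone gave 12 higher and 2 lower. Of 11 class II genes, 1 rose (9.09%, under the 11.9% of all genes) and 0 fell (median 0.21). The one was March1, a ubiquitin ligase that removes class II from the surface, at 115, 42.4 and 119 CPM in medium and 219, 374 and 343 CPM in LPS (2.39 ± 0.36). For the class II list, library size alone gave 1 higher and 1 lower, and the count of lower genes was 1 without medium 2. Ciita, the master regulator of class II, stood at 80.1, 6.96 and 63.8 CPM in medium and 7.90, 5.10 and 2.37 CPM in LPS and was not called (−2.59 ± 0.91, edgeR, Benjamini-Hochberg adjusted p = 0.0682). Of 18 costimulation and checkpoint genes, 12 rose, 10 of them stable. Cd274, the checkpoint ligand PD-L1, stood at 172, 89.2 and 148 CPM in medium and 1123, 1963 and 1772 CPM in LPS (4.17 ± 0.39) and Cd86 at 48.7, 45.3 and 52.5 CPM in medium and 249.7, 229 and 583 CPM in LPS (3.48 ± 0.48). Cd40, the receptor of T cell help, stood at 12.0, 27.1 and 13.7 CPM in medium and 1489, 224 and 1066 CPM in LPS (6.34 ± 0.83), lowest in LPS 2. For all 3 the groups were well apart. For the costimulation list, library size alone gave 11 higher and 2 lower, and the count of lower genes was 1 without LPS 2.

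**Figure D4:**
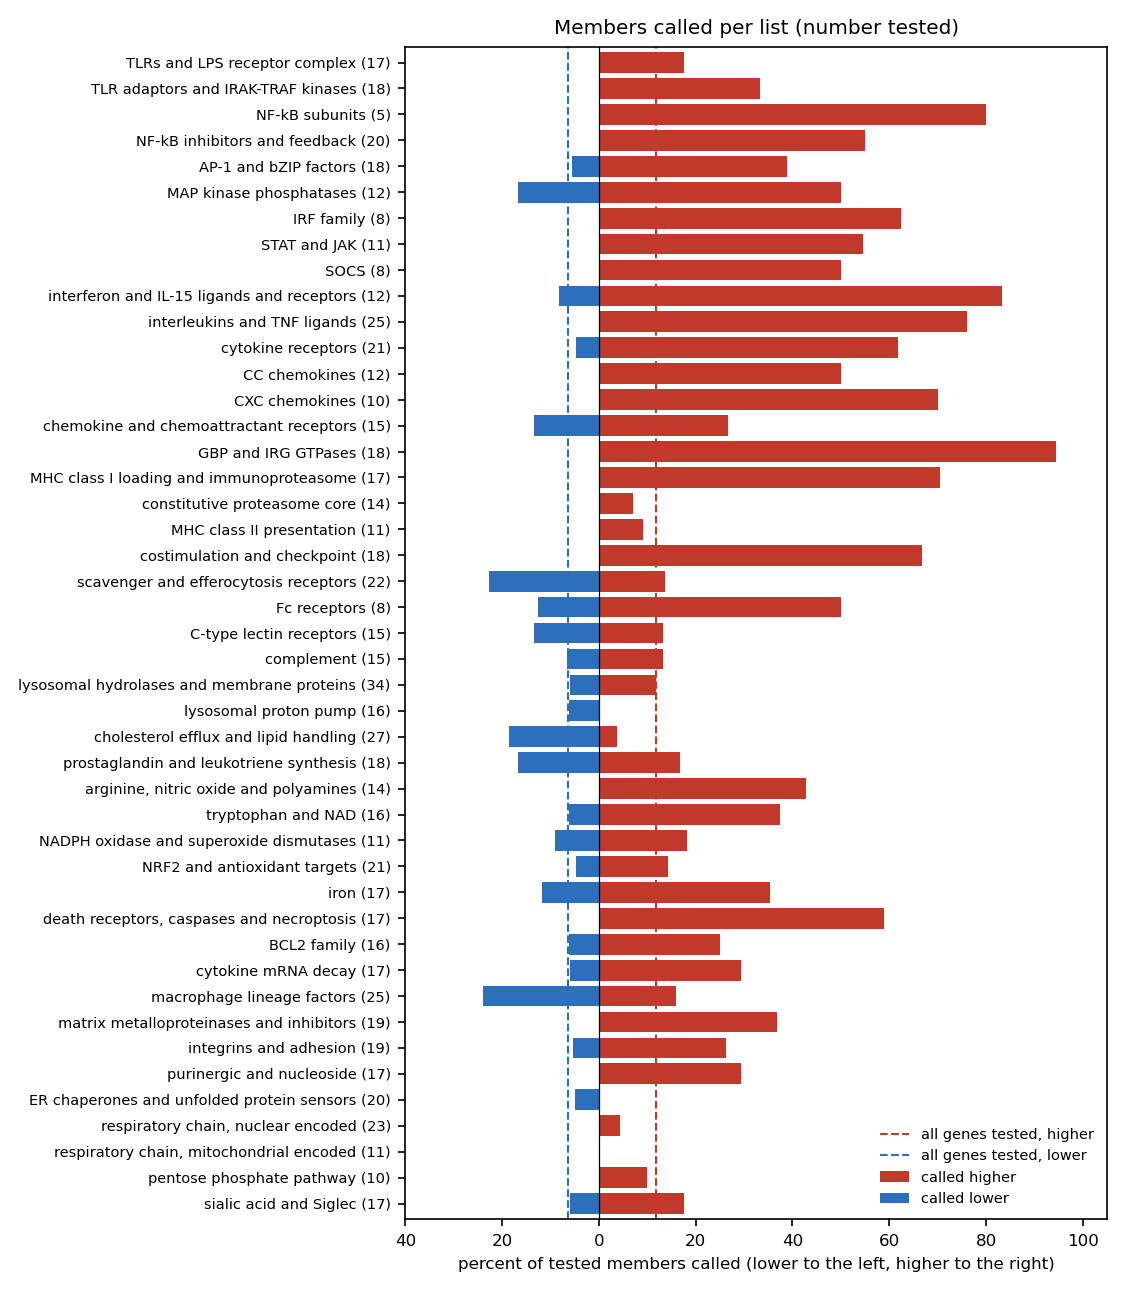
For each list, bars give the percent of tested members called higher (red, right) and lower (blue, left), with dashed lines at the 11.9% and 6.46% of all genes tested. The GTPases of the GBP and IRG families have the longest red bar, and scavenger receptors, lipid handling and lineage factors have the longest blue bars.

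Receptors for uptake went different ways. Of 8 Fc receptor genes, 4 rose and 1 fell (50% and 12.5%, against 11.9% and 6.46% of all genes), 3 and 0 of them stable. Fcgr1, the high-affinity receptor of IgG, stood at 424, 454 and 436 CPM in medium and 1269.9, 2419 and 1603 CPM in LPS (2.55 ± 0.31), Fcgr4 rose by 2.88 ± 0.39, and the inhibitory Fcgr2b by 2.92 ± 0.50. For the Fc receptors, the count of lower genes was 0 without LPS 1, LPS 3, medium 1 or medium 3. Of 22 scavenger and efferocytosis receptors, 3 rose and 5 fell, 1 and 2 of them stable. These are 13.6% and 22.7%, against 11.9% and 6.46% of all genes. For the scavenger receptors, library size alone gave 1 higher and 7 lower, the count of higher genes was 1 without LPS 3, medium 1, medium 2 or medium 3, and the count of lower genes was 2 without LPS 1, medium 1 or medium 3. Cd300a, an inhibitory receptor that binds phosphatidylserine, fell from 401, 214 and 371 CPM to 37.1, 48.8 and 27.7 CPM (−2.51 ± 0.43), and Itgb5 by 1.22 ± 0.26 on the log2 scale. Olr1, a receptor of oxidised lipoprotein, rose (0.974, 4.66 and 2.13 CPM in medium and 54.4, 6.15 and 36.9 CPM in LPS, log2 4.29 ± 0.85). Of 15 C-type lectin receptors, 2 rose and 2 fell (13.3% each, against 11.9% and 6.46% of all genes). Clec4e, also called Mincle, a receptor of mycobacterial glycolipids, was the stable one of them, at 133, 103 and 156 CPM in medium and 1822, 702 and 2177 CPM in LPS (4.26 ± 0.56). For the lectin receptors, library size alone gave 2 higher and 4 lower, the count of higher genes was 1 without LPS 3, medium 1 or medium 3, and the count of lower genes was 0 without LPS 2 or LPS 3 and 1 without medium 1, medium 2 or medium 3. Of 15 complement genes, 2 rose, both stable, and 1 fell (13.3% and 6.67%), near the 11.9% and 6.46% of all genes. For the complement genes, library size alone gave 2 higher and 2 lower, and the count of lower genes was 0 without LPS 2, LPS 3, medium 1 or medium 3. C1ra, a protease of the first complex, stood at 11.6, 5.12 and 9.69 CPM in medium and 42.7, 35.6 and 37.6 CPM in LPS, and factor B, Cfb, at 0.871, 0.0764 and 0.548 CPM in medium and 5.77, 19.7 and 10.5 CPM in LPS. The log2 rises were 2.78 ± 0.36 and 5.08 ± 0.86. Of 17 sialic acid and Siglec genes, 3 rose and 1 fell (17.6% and 5.88%), 1 of each stable. For the sialic acid list, library size alone gave 1 higher and 4 lower, and the count of higher genes was 1 without LPS 3 or medium 3. Siglece, an inhibitory receptor of sialic acid, stood at 16.1, 4.51 and 11.8 CPM in medium and 15.9, 93.3 and 42.6 CPM in LPS, with overlap, and rose by 2.77 ± 0.62, while the sialyltransferase St6gal1 fell from 81.2, 18.2 and 111 CPM to 1.73, 1.91 and 0.851 CPM (−4.88 ± 0.78).

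Several enzymes of arginine and NAD metabolism rose. Of 14 genes of arginine, nitric oxide and polyamines, 6 rose, 5 of them stable. Nos2 stood at 5.94, 3.90 and 8.35 CPM in medium and 2153, 831 and 2704 CPM in LPS. The arginine importer Slc7a2 rose by 6.04 ± 0.87. Ass1, which remakes arginine from citrulline, stood at 23.3, 39.9 and 12.6 CPM in medium and 166, 280.2 and 121 CPM in LPS. Each of these was above medium in all LPS libraries, and Gch1, which makes the cofactor of Nos2, rose by 3.04 ± 0.59. For the arginine list, library size alone gave 5 higher and 4 lower, and the count of lower genes was 1 without LPS 2 or medium 2. Arg1, which competes for arginine, was not called (9.48, 32.0 and 41.6 CPM in medium and 47.2, 242 and 135 CPM in LPS). Of 16 genes of tryptophan and NAD, 6 rose and 1 fell (37.5% and 6.25%, against 11.9% and 6.46% of all genes), 5 and 1 of them stable. The NAD-degrading surface enzyme Cd38 stood at 5.59, 1.53 and 9.14 CPM in medium and 92.2, 244 and 345 CPM in LPS (6.04 ± 0.79), and its neighbour in function Bst1 at 7.07, 16.1 and 18.2 CPM in medium and 102, 292 and 109 CPM in LPS (4.10 ± 0.48). Nampt, which salvages NAD, rose by 2.08 ± 0.39, and Nmnat3, a late enzyme of NAD synthesis, fell by 1.90 ± 0.37 on the log2 scale. Of 18 prostaglandin and leukotriene genes, 3 rose and 3 fell, 2 and 0 of them stable. These are 16.7% each, against 11.9% and 6.46% of all genes. Ptges, the terminal synthase of prostaglandin E2, stood at 6.82, 10.0 and 11.5 CPM in medium and 318, 262 and 609 CPM in LPS (6.01 ± 0.55), and the phospholipase Pla2g4a rose by 2.64 ± 0.56. For the tryptophan list, library size alone gave 6 higher and 2 lower. For the prostaglandin list, library size alone gave 2 higher and 7 lower, and the count of lower genes was 0 without medium 3 and 1 without LPS 3 or medium 1. Of 17 purinergic and nucleoside genes, 5 rose, all 5 stable. Slc28a2, a nucleoside transporter, stood at 29.1, 24.9 and 22.7 CPM in medium and 1287, 706 and 1755 CPM in LPS (6.24 ± 0.48), and Adora2a, an adenosine receptor, at 3.74, 2.52 and 3.29 CPM in medium and 92.4, 10.1 and 111 CPM in LPS (5.18 ± 0.76). LPS 2 was low for Adora2a. For the purinergic list, library size alone gave 5 higher and 1 lower.

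Some genes of lipid handling fell, while the shares of lysosomal genes that fell were near that of all genes. Of 27 genes of cholesterol efflux and lipid handling, 1 rose and 5 fell, 1 and 2 of them stable. The shares were 3.70% and 18.5%, against 11.9% and 6.46% of all genes. For the lipid list, library size alone gave 1 higher and 9 lower, the count of higher genes was 2 without LPS 2 or medium 2, and the count of lower genes was 2 without LPS 3 and 3 without medium 3. Fasn, fatty acid synthase, stood at 48.6 ± 3.73 CPM in medium and 5.88 ± 1.03 CPM in LPS (SD, n = 3; log2 −2.48 ± 0.25, edgeR, Benjamini-Hochberg adjusted p = 9.1e-05), and the groups were far apart. Lpin1, a phosphatidate phosphatase, stood at 34.4, 7.49 and 35.3 CPM in medium and 0.597, 1.81 and 0.122 CPM in LPS (−4.30 ± 0.89), lowest of the medium libraries in library 2. Ch25h, which makes 25-hydroxycholesterol, rose from 0.461, 5.89 and 1.16 CPM to 162, 61.9 and 115 CPM (6.05 ± 1.18). Of 34 lysosomal hydrolases and membrane proteins, 4 rose and 2 fell, 1 of each stable, near the 11.9% and 6.46% of all genes. For the lysosomal list, library size alone gave 1 higher and 17 lower, the count of higher genes was 1 without medium 3 and 2 without LPS 1, LPS 3 or medium 1, and the count of lower genes was 1 without LPS 3 or medium 1. Lipa, lysosomal acid lipase, fell from 2228, 908 and 1906 CPM to 375, 298 and 202 CPM (−1.87 ± 0.35) and was the largest loss in CPM among called genes. Ctsc, cathepsin C, stood at 523, 235 and 636 CPM in medium and 1275, 2954 and 2432 CPM in LPS (2.87 ± 0.41), so 2 abundant lysosomal enzymes went in opposite directions. Of 16 proton pump genes, 1 fell (6.25%, near the 6.46% of all genes). It was Atp6v0a1 (370.3, 431 and 302 CPM in medium and 64.7, 84.8 and 25.7 CPM in LPS, log2 −2.13 ± 0.39). For the proton pump, library size alone gave 0 higher and 5 lower, the count of higher genes was 1 without LPS 2 and 2 without medium 2, and the count of lower genes was 2 without LPS 1. The lysosomal calcium channel Mcoln3 was among the largest falls of all, from 97.9, 5.27 and 21.1 CPM to 0.464, 0.763 and 0.122 CPM (−5.87 ± 1.16). Deptor, an inhibitor of mTOR, fell from 25.1, 10.1 and 31.4 CPM to 0.929, 1.24 and 0.547 CPM (−3.97 ± 0.49).

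Genes of iron and of reactive oxygen went both ways. Of 17 iron genes, 6 rose and 2 fell (35.3% and 11.8%, against 11.9% and 6.46% of all genes), 4 and 1 of them stable. For the iron genes, library size alone gave 5 higher and 4 lower, and the count of lower genes was 1 without LPS 3 or medium 1. Lcn2, which binds bacterial siderophores, stood at 55.3, 81.7 and 85.6 CPM in medium and 681, 709 and 1732 CPM in LPS (4.42 ± 0.54), and Tfrc, the transferrin receptor that imports iron, at 282, 82.2 and 279 CPM in medium and 23.9, 24.6 and 41.2 CPM in LPS (−2.17 ± 0.46). Hp, haptoglobin, rose by 3.68 ± 0.60, and Fth1, ferritin heavy chain and one of the most abundant transcripts, was not called (23018, 34002 and 21525 CPM in medium and 36471, 34981 and 34586 CPM in LPS). Lcn2 is a neutrophil granule gene too. The neutrophil markers given above, 2 of 11 called, were also highest in LPS 3, and their part in the result was not tested. Of 11 NADPH oxidase, superoxide dismutase and catalase genes, 2 rose and 1 fell (18.2% and 9.09%), all stable. Sod2, the mitochondrial dismutase, stood at 198 ± 52.9 CPM in medium and 1927 ± 673 CPM in LPS (SD, n = 3; log2 3.88 ± 0.50), and Cat, catalase, at 617, 194 and 709 CPM in medium and 103, 125 and 67.4 CPM in LPS (−1.72 ± 0.38). Rac2, an oxidase subunit, rose by 1.43 ± 0.29, while Cybb, the catalytic subunit, was not called (0.86 ± 0.28). For the oxidase list, library size alone gave 2 higher and 2 lower. Of 21 NRF2 and antioxidant targets, 3 rose and 1 fell (14.3% and 4.76%), near the 11.9% and 6.46% of all genes. Prdx5 (349, 935 and 378 CPM in medium and 2454, 1616 and 2282 CPM in LPS, log2 2.48 ± 0.56) and Keap1, the NRF2 inhibitor (1.53 ± 0.30), were the stable rises. For the antioxidant list, library size alone gave 2 higher and 2 lower, the count of higher genes was 5 without LPS 2 or medium 2, and the count of lower genes was 0 without LPS 1, LPS 3 or medium 3.

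Many cell death genes rose, and lineage factors went both ways. Of 17 genes of death receptors, caspases and necroptosis, 10 rose, 9 of them stable, and 0 fell. Mlkl, the pore of necroptosis, stood at 23.6, 38.1 and 28.3 CPM in medium and 275, 241 and 309 CPM in LPS, and Zbp1, its nucleic acid sensor, at 113, 113 and 96.4 CPM in medium and 630.1, 733 and 758 CPM in LPS. The groups did not overlap, and the log2 rises were 3.77 ± 0.37 and 3.29 ± 0.34. Cflar, an inhibitor of caspase 8, rose by 2.78 ± 0.33. Of 16 BCL2 family genes, 4 rose and 1 fell (25% and 6.25%, against 11.9% and 6.46% of all genes). Bak1 was among those that rose (1.52 ± 0.27). Bcl2a1a rose by 4.81 ± 0.77, but it has near-identical copies. For the BCL2 family, library size alone gave 3 higher and 2 lower, the count of higher genes was 2 without LPS 3, medium 1 or medium 3, and the count of lower genes was 0 without LPS 1, LPS 3 or medium 1. For the death list, library size alone gave 9 higher and 1 lower. Of 25 macrophage lineage factors, 4 rose and 6 fell, 1 and 2 of them stable. These are 16% and 24%, against 11.9% and 6.46% of all genes. For the lineage factors, library size alone gave 3 higher and 8 lower, the count of higher genes was 1 without LPS 3 and 2 without medium 1, and the count of lower genes was 2 without LPS 3 and 3 without medium 1. Pparg, a factor of lipid metabolism and of alveolar and resting macrophages, stood at 66.1, 42.5 and 56.1 CPM in medium and 4.38, 8.83 and 4.14 CPM in LPS (−2.69 ± 0.29, edgeR, Benjamini-Hochberg adjusted p = 0.000161), and Cebpa was described above. Klf6 rose by 1.90 ± 0.32. Of 19 matrix metalloproteinase and inhibitor genes, 7 rose, 5 of them stable, with Mmp14, a membrane protease, at 241, 64.1 and 148 CPM in medium and 591, 796 and 1156 CPM in LPS (3.14 ± 0.53). Of 19 integrin and adhesion genes, 5 rose and 1 fell (26.3% and 5.26%, against 11.9% and 6.46% of all genes), 3 and 1 of them stable. Stable rises included Icam1 (139, 51.6 and 127 CPM in medium and 489, 237 and 508 CPM in LPS, log2 2.66 ± 0.42) and Itga5 (2.44 ± 0.45). For the integrin list, library size alone gave 3 higher and 2 lower, the count of higher genes was 3 without LPS 3, and the count of lower genes was 2 without LPS 2 or medium 2. For the metalloproteinase list, library size alone gave 7 higher and 2 lower, and the count of lower genes was 1 without LPS 1. Few members were called in 3 further lists, with shares near or under those of all genes: 1 of 20 endoplasmic reticulum chaperones and sensors was lower, and 1 of 23 nuclear-encoded respiratory chain genes and 1 of 10 pentose phosphate genes were higher. None of these 3 calls was stable. For the chaperones, library size alone gave 0 higher and 7 lower, the count of higher genes was 1 without LPS 2, and the count of lower genes was 0 without LPS 1, LPS 3, medium 1 or medium 3. For the respiratory chain, library size alone gave 1 higher and 3 lower, and the count of higher genes was 0 without LPS 1, LPS 3, medium 1 or medium 3. For the pentose phosphate pathway, library size alone gave 0 higher and 8 lower, the count of higher genes was 0 without LPS 1, medium 1 or medium 3, and the count of lower genes was 1 without LPS 2.

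The 3 WT LPS libraries did not respond to the same extent. Levels in this paragraph are TMM-scaled. The factors were 0.765, 1.02 and 0.819 in LPS 1, 2 and 3, which lowers LPS 2 against the others. On this scale WT LPS 2 was the lowest of the 3 in 1134 of the 1636 higher genes, against 394 for LPS 1 and 108 for LPS 3. Without that scaling, the higher genes took 37.6%, 35.4% and 44.2% of all counts in LPS 1, 2 and 3. The median rise of the higher genes over the medium mean was 2.18 in LPS 1, 1.59 in LPS 2 and 2.36 in LPS 3 on the log2 scale. The gap was wide for the 19 called interleukin and TNF ligands, with medians of 5.40, 2.42 and 5.29, and LPS 2 was lowest in 19 of 19. In plain CPM, given above, LPS 2 was not the lowest for Il1rn or Tnfsf10. The gap was wide for the 11 called NF-kB inhibitors too, with 3.14, 1.51 and 3.44, and LPS 2 lowest in all 11. For the 17 called GTPases the medians were 4.43, 4.37 and 4.92, and LPS 2 was lowest in 9 of 17. For the 10 called interferon and interleukin 15 axis genes they were 2.80, 2.74 and 3.07, and LPS 2 was lowest in 8 of 10. For the 12 called class I genes they were 2.69, 1.87 and 2.64, and LPS 2 was lowest in 11. These members were chosen by their call in the same libraries, so the medians are a description, and no test was made of 1 library. LPS 2 is also the only WT LPS library with Xist, so the sex read from transcripts and this library cannot be told apart. Within the Xist libraries (medium 1 and 3, LPS 2) the median of the higher genes was 1.59, and within the Y libraries (medium 2, LPS 1 and 3) it was 2.31. For lower genes the medians were −1.42 and −1.52. The difference was above 0 within both for 1627 of the 1636 higher genes, and below 0 within both for all 890 lower genes.

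**Figure D5:**
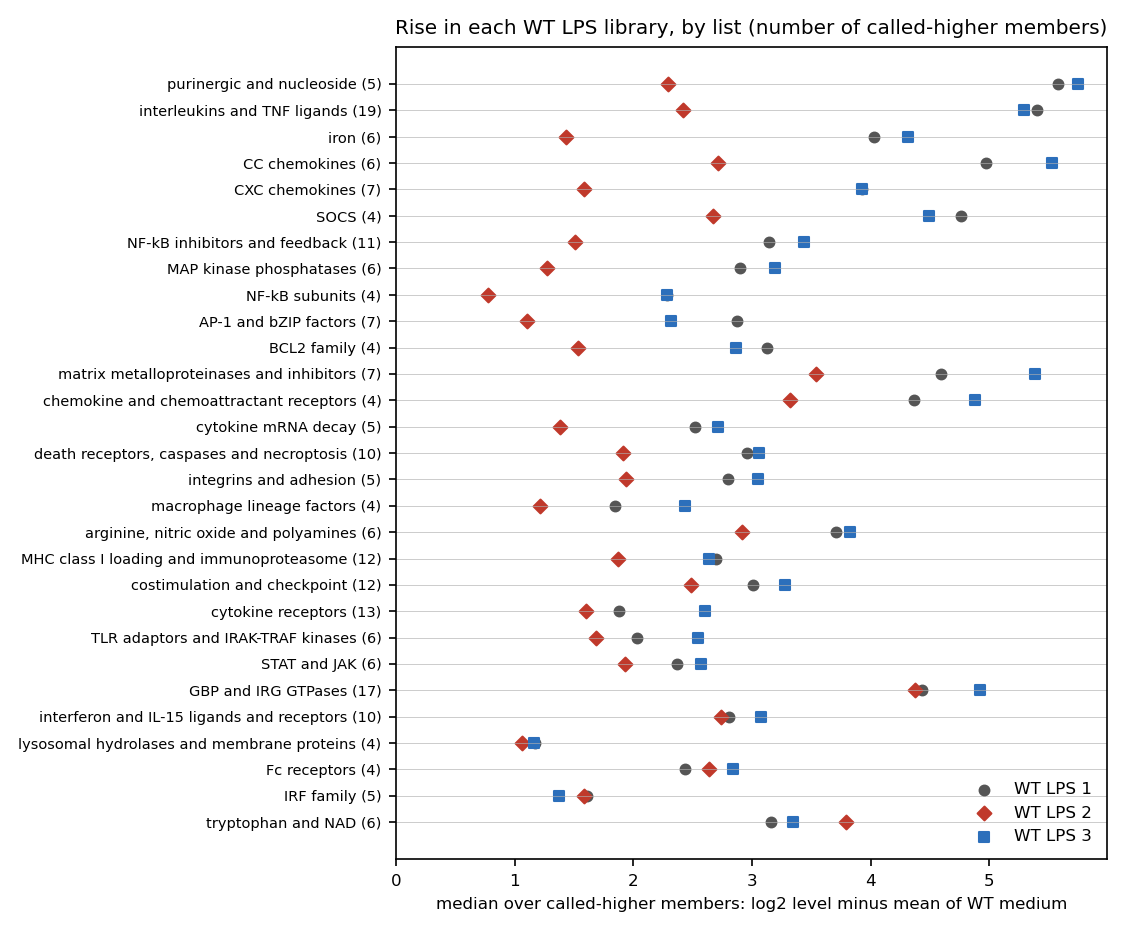
For each list with at least 4 members called higher, the 3 symbols give the median of those members' TMM-scaled log2 level in WT LPS 1, 2 and 3 minus the mean of WT medium. WT LPS 2 (red) lies well left of the others for interleukins, chemokines and NF-kB feedback, and beside them for GTPases, the interferon and interleukin 15 axis and Fc receptors.

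The same contrast in the libraries labelled KO ran the other way. The interaction, which asks whether the LPS effect differs between WT and labelled KO, was called for 5657 of 13773 genes (41.1%; edgeR quasi-likelihood test, Benjamini-Hochberg). It was called for 1620 of the 1636 genes higher in WT and for 887 of the 890 lower ones. The higher genes had a median log2 fold of 2.16 in WT and −2.16 in the libraries labelled KO, where 1626 of them were below 0. For the lower genes the medians were −1.68 and 1.77, with 888 above 0. Gbp2, at 5.74 ± 0.45 in WT, was at −5.52 in the libraries labelled KO, and Pparg, at −2.69 ± 0.29 in WT, was at 2.80 (interaction adjusted p = 4.7e-07 and 2.7e-06, edgeR, Benjamini-Hochberg). Nos2 stood between 1148 and 2717 CPM in the libraries labelled KO medium and between 0.689 and 5.43 CPM in those labelled KO LPS, against the treatment label in both. Nlrc3 went against the KO label in those labelled KO LPS, and in those labelled KO medium it lay within the range of WT LPS. The difference is therefore between libraries as labelled.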

How the data were processed

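RNA sequencing libraries of 12 macrophage samples were used as 2 deposited tables. The first holds raw read counts per Ensembl gene made by the authors, and the second holds FPKM values by the authors (fragments scaled by gene length and depth), of which group means were tabulated but none is printed or tested. The genome build was mm10, per the submitters' processing notes. No source used here gives the aligner, counting tool, annotation or use of strand, and the labels' protocols name both a TruSeq and a stranded KAPA kit. Library totals of the 6 WT libraries were 13082947 to 20960505 counts.

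Counts were tested with edgeR 4.0.16 in R 4.3.3 (TMM scaling, its default filter on low counts, quasi-likelihood test, 1 mean for each of the 4 groups over all 12 libraries), with Benjamini-Hochberg adjustment over the 13773 genes tested and a threshold of 0.05. Values after ± are standard errors of log2 folds. The test was tried on simulated data first. Alternatives used DESeq2 1.42.0, limma 3.58.1 voom, other scalings and filters, blocks, a sex term and leaving out each WT library. Named genes were the largest rises, falls, gains and losses, and in each list the called members with the smallest p (up to 4 in each direction), up to 3 uncalled ones with the highest level, and any member of a list of 12 or fewer genes. Tlr4, Ccl2, Ciita, Ebi3, Ifnar1, Ifnar2, Ifnb1, Il18bp, S100a8, Camp, Pdgfrb, Cdh5 and Hdc were added outside this rule after their values were seen. The genes and lists were chosen with earlier results of these data known. Promoter windows (250 bases before to 50 after the start) were matched by symbol to 9968 tested genes.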

Additional observations from a re-analysis of the deposited data

Results flagged for a closer look

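The LPS effect differed between WT and the libraries labelled KO, by the interaction term of the edgeR fit (Benjamini-Hochberg adjusted), for 5657 genes. In the libraries labelled KO, 1626 of the 1636 genes higher in WT were below 0 and 888 of the 890 lower ones were above 0. Nlrc3 stood at 0.850 to 0.996 CPM in the libraries labelled KO medium, within the 0.796 to 4.39 CPM of WT LPS. In those labelled KO LPS it stood at 6.04 to 15.6 CPM, above the 0.796 to 4.39 CPM of WT LPS and so against their label.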

How the results depend on the processing

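Counts of 1636 higher and 890 lower genes became 1033 and 3200 with library size alone, 1012 and 312 with the replicate block of title numbers and 842 and 202 with the code number block, the number that 2 medium and 2 LPS libraries share in their codes. Medium 1 and LPS 3 share no number, so with that block they add nothing to the estimated LPS effect. Its lower counts thus also reflect the loss of these libraries. A sex term gave 1463 lower genes, DESeq2 gave 1529 and the WT libraries alone gave 467. With each WT library left out in turn, the higher count ran from 1069 to 1858 and the lower count from 315 to 1184. No gene called in WT changed sign under any of these. Same-numbered libraries deviated from their group means with correlations of −0.47, −0.54 and 0.09. Deviations within a group of 3 sum to 0, so such correlations alone cannot settle a pairing. Each of these same-numbered pairs was unlike in the sex read from transcripts, so the title numbers do not mark a shared mouse. The 2 pairs that share a code number, each alike in the sex read from transcripts, had correlations of 0.59 and 0.46. Among pairs alike in that sex but without a shared code number, medium 1 and LPS 2 had 0.48 and medium 2 and LPS 3 had −0.01. In the pairs that share a code number, the number and the sex cannot be told apart. The labels do not say what the code number marks. With its block 17 of the 142 named genes with a fit lost their call: Camp, Cat, Cxcr4, Dusp22, Ebi3, Hdc, Ifnar2, Itgb5, Lipa, Mcoln3, Nfkb2, Pdgfrb, Pla2g4a, Rac2, Relb, S100a8 and Stat3. With the replicate block 9 did. Of the 65 list counts above 0, 36 moved by more than 1.5 times with the code number block, 25 with the replicate block, 28 with library size alone, 25 in the WT libraries alone, 17 with the sex term, 13 in DESeq2 and 12 with no filter. Both blocks gave 4 higher CXC chemokines. Counted on the promoter strand only, as its reverse complement, the interferon response element stood in 4.69% of windows of higher genes, 1.77% of all windows and 1.48% of those of lower genes. The depth leaves 3 counts at 0.143 to 0.229 CPM, and with 3 libraries a group small changes can be missed.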
